A study of Arabidopsis thaliana with 12 samples.

Results

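The genes described here make or inactivate brassinosteroids, and their transcripts were followed by RNA-seq in 4 genotypes of Arabidopsis thaliana. They were taken by name, from knowledge of the pathway, with earlier results of these data known. The list held 8 synthesis genes (DWF1, DET2, DWF4, CPD, ROT3, CYP90D1, BR6OX1 and BR6OX2) and 2 inactivation genes (BAS1 and SOB7). All 10 were found among the 25089 loci of the files, and all 10 passed the filter on low values. The study, by its title, set AT-hook (AHL) transcription factors against PIF4, a phytochrome-interacting bHLH factor, in petiole growth. The 12 libraries came from the apical part of 14-day-old plants of the Columbia background, cut through the hypocotyl and harvested at ZT4. Each genotype had 3 libraries. Col-0 was the wild type. sob3-6 is a dominant-negative mutant of the AHL gene SOB3, and SOB3-D is a SOB3 overexpressor. The last genotype, pif4 pif5 pif7, lacks the function of 3 PIF genes through the alleles pif4-101, pil6-1 (in PIF5) and pif7-1. All genotypes were kept at 22 °C on sucrose-free medium with 16 h of light and 8 h of dark a day, and the labels name no hormone or inhibitor. Light intensity was given as 35 to 55 µmol for every library. The labels name no promoter for SOB3-D and do not say whether each library is 1 plant or a pool.

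Brassinosteroids are plant steroid hormones that promote cell elongation. DWF1 and sterol enzymes before it supply campesterol, which the reductase DET2 and a series of cytochrome P450 enzymes turn into castasterone and brassinolide, while other P450 enzymes such as BAS1 hydroxylate the finished hormone into inactive forms. The hormone acts through the receptor kinase BRI1, the kinase BIN2 and the transcription factors BZR1 and BES1, and it is known to lower transcripts of several of its own synthesis genes and to raise that of BAS1. BAS1, SOB7 and SOB3 were all first named from activation-tagged suppressors of a weak phytochrome B mutant.

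The 300 bases before the annotated start of 5 of the genes are printed here because these genes carry the results: DWF4, ROT3 and BAS1 had the largest rises in SOB3-D, and CPD and BR6OX2 were the members lower in pif4 pif5 pif7. They were read from the RefSeq TAIR10.1 genome, 5′ to 3′ on the strand of the gene. Capitals mark the letters CACATG or their reverse complement CATGTG, a form of the E-box that PIF proteins are known to bind. The windows are chr3:18817406-18817705 (minus strand) for DWF4, chr4:17192508-17192807 (minus strand) for ROT3, chr2:11380163-11380462 (plus strand) for BAS1, chr5:1706949-1707248 (minus strand) for CPD and chr3:11810426-11810725 (plus strand) for BR6OX2.
DWF4: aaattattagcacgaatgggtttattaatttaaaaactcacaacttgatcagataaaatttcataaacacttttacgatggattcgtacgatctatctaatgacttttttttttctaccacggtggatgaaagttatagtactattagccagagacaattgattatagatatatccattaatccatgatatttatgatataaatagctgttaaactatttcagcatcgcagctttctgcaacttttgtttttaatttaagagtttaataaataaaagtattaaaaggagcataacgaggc
ROT3: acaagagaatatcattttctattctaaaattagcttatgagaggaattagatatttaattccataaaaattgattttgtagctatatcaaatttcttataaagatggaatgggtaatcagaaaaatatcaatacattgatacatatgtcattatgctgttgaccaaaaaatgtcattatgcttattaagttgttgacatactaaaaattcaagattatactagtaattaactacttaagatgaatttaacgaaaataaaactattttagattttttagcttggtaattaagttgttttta
BAS1: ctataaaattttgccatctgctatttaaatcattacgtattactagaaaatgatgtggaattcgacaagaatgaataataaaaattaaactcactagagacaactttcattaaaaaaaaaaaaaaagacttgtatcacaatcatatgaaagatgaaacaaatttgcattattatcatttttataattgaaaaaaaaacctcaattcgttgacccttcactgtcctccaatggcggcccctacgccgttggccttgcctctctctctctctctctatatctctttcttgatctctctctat
CPD: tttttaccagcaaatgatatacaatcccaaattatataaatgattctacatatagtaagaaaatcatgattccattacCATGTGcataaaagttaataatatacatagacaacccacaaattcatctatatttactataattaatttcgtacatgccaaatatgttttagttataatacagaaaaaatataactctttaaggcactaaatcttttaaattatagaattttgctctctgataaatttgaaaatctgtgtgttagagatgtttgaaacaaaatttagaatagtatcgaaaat
BR6OX2: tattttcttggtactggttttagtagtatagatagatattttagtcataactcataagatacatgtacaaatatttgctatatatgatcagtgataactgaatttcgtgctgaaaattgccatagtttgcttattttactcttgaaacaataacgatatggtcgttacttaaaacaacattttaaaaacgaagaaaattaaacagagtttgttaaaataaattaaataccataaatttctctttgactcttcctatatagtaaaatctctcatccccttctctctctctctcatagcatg

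The windows of all 10 genes were searched on both strands for CACATG, for the G-box CACGTG, and for CGTGTG and CGTGCG, the elements that BZR1 is known to bind in brassinosteroid synthesis genes. CACATG was present in 6 of the 10 windows (CPD, CYP90D1, BR6OX1, DET2, DWF1 and SOB7) and in 13.1% of all 27443 windows of this length. In DWF1 the motif matched on both strands in 2 overlapping positions, -228 to -223 and -226 to -221, where the base before the gene start is -1. In CPD it lay at -222 to -217. The windows of DWF4, ROT3, BR6OX2 and BAS1 held none of the motifs searched. Neither BZR1 element was found in any of the 10 windows, and 7.64% of all windows held at least 1 of them. No G-box was found in the 10 either, against 7.09% of all windows. These matches describe letters in a short window only. By base composition, A and T made up 77.3% of the ROT3 window and 76.3% of the CPD window. The share was 72% for both DWF4 and BR6OX2 and 68% for BAS1, beside a median of 68.7% over all windows. The highest share of the 10 was that of DWF1, at 79.3%.

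Library depth was 7637822 to 8877404 reads in SOB3-D, 10179924 to 12567173 in sob3-6, 13809707 to 14734732 in pif4 pif5 pif7 and 14488308 to 16075498 in Col-0. Levels are in reads per 1000000 mapped tags (ppm), and means are given ± SD over n = 3 libraries. SOB3 was at 0.145 ppm in Col-0, 227 ppm in sob3-6 and 196 ppm in SOB3-D, so its transcript was high in both AHL lines. PIF4 (139 to 77.4 ppm), PIF5 (193 to 19.1 ppm) and PIF7 (45.2 to 6.48 ppm) fell in pif4 pif5 pif7. The related AHL gene ESC did not pass the filter (0.428 to 0.689 ppm on average). The summed level of 4 leaf markers was 42397 to 44269 ppm in sob3-6, 46534 to 48687 in SOB3-D, 47287 to 48830 in Col-0 and 51151 to 53437 in pif4 pif5 pif7. The sum of 7 root markers was 0.786 to 1.58 ppm in SOB3-D, 1.56 to 2.48 in Col-0, 1.87 to 2.32 in sob3-6 and 1.45 to 2.58 in pif4 pif5 pif7, with EXPA7 at 0 in every library. FRO2, a root iron reductase gene and the 1 root marker past the filter, was at 1.1 ppm in SOB3-D beside 1.92 ppm in Col-0 (-0.49, SE 0.18, adjusted p = 0.0455). The SOB3-D value of FRO2 rests on 5, 13 and 10 reads. No other root marker exceeded 0.351 ppm in any library, so the root sum is mainly this 1 gene. NRT2.1, under the filter and not tested, was at 0 ppm in Col-0 and 0.16 ppm in SOB3-D, the latter from only 1, 0 and 3 reads. The sum of 3 flower markers was at most 0.873 ppm. In bulk tissue, fewer cells of a type and less RNA per cell cannot be told apart. The part of these leaf and root marker differences in the results below was not tested.

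Compared per kilobase of transcript, the synthesis genes spanned a wide range of levels in Col-0. DWF1 was the highest at 189 ± 5.2 ppm per kb and CPD was next at 93 ± 6.3 ppm per kb. BR6OX2 followed at 21.5 ± 0.52, DET2 at 9.69 ± 0.67 and DWF4 at 6.52 ± 0.19 ppm per kb. Each of these 5 lay beyond the spread of its neighbours in that order. BAS1 (3.61 ± 0.24 ppm per kb), ROT3 (3.22 ± 0.021 ppm per kb) and CYP90D1 (2.6 ± 0.18 ppm per kb) lay close together. The 2 lowest, SOB7 (0.996 ± 0.26 ppm per kb) and BR6OX1 (0.901 ± 0.19 ppm per kb), did not differ beyond their spread. In SOB3-D the order changed among the middle genes: ROT3 stood at 8.58 ± 0.11 ppm per kb, above BAS1 (5.82 ± 1.3 ppm per kb) and next to DWF4 (9.74 ± 1.2 ppm per kb).

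**Figure D1:**
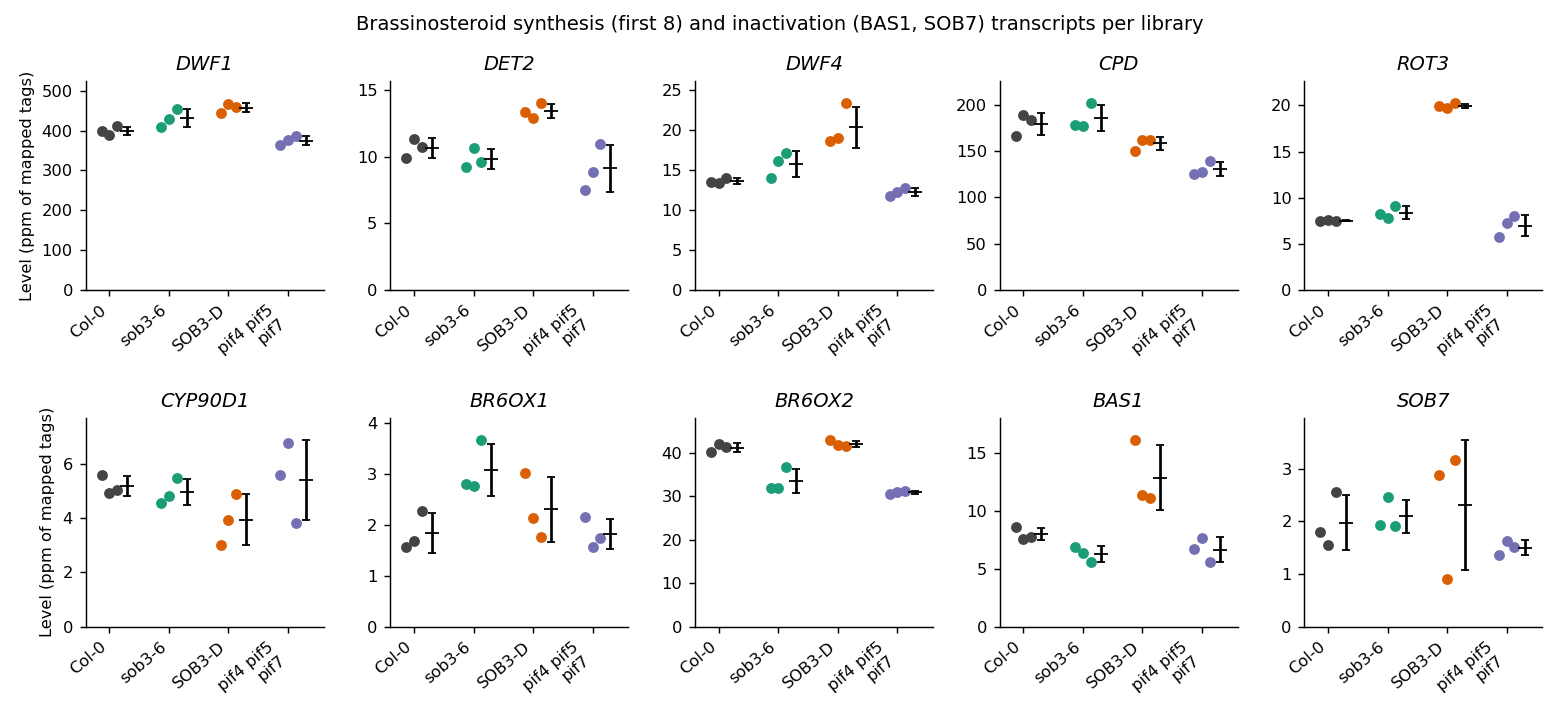
Level of each transcript in ppm of mapped tags, with 1 panel per gene and a separate linear axis from 0 in each. Points are the 3 libraries of a genotype and bars are mean ± SD. The SOB3-D libraries of ROT3 (19.7 to 20.2 ppm) lie far above all others, while CPD and BR6OX2 are low in pif4 pif5 pif7.

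SOB3-D had the most calls against Col-0 among the altered lines, and whether the lines differ in that count was not tested. In SOB3-D, 5 of 10 members rose and 1 fell, beside 26.4% of all 18502 tested genes called, 11.6% higher and 14.9% lower (limma on log2(ppm + 1), Benjamini-Hochberg adjusted p under 0.05). The 3 libraries of SOB3-D lay wholly beyond those of Col-0 in 7 of 10 members, beside 37.9% of all tested genes. The median change of the members was 0.20 on the log2 scale, and that of all tested genes was -0.02. In pif4 pif5 pif7, 2 members fell and 0 rose, beside 6.33% of tested genes called (1.5% higher and 4.83% lower). None was higher at an unadjusted limma p under 0.05 (0 of 10) or in edgeR (0 of 10), and 4 of 10 did not overlap Col-0, beside 27.1%. In sob3-6, 1 rose and 1 fell, beside 13.4% called (9.43% higher and 3.95% lower), and 4 of 10 did not overlap, beside 33.2%. The median change of the members was -0.18 in pif4 pif5 pif7 (all tested genes -0.04) and 0.06 in sob3-6 (all tested genes 0.06). These 3 comparisons share the Col-0 libraries. The split of all called genes depended on the scaling of libraries: 70.5% of those called in sob3-6 were higher, but 39.2% after median-of-ratios scaling and 46.5% after quantile normalization. For pif4 pif5 pif7 these shares were 23.7%, 48.6% and 42.7%.

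**Figure D2:**
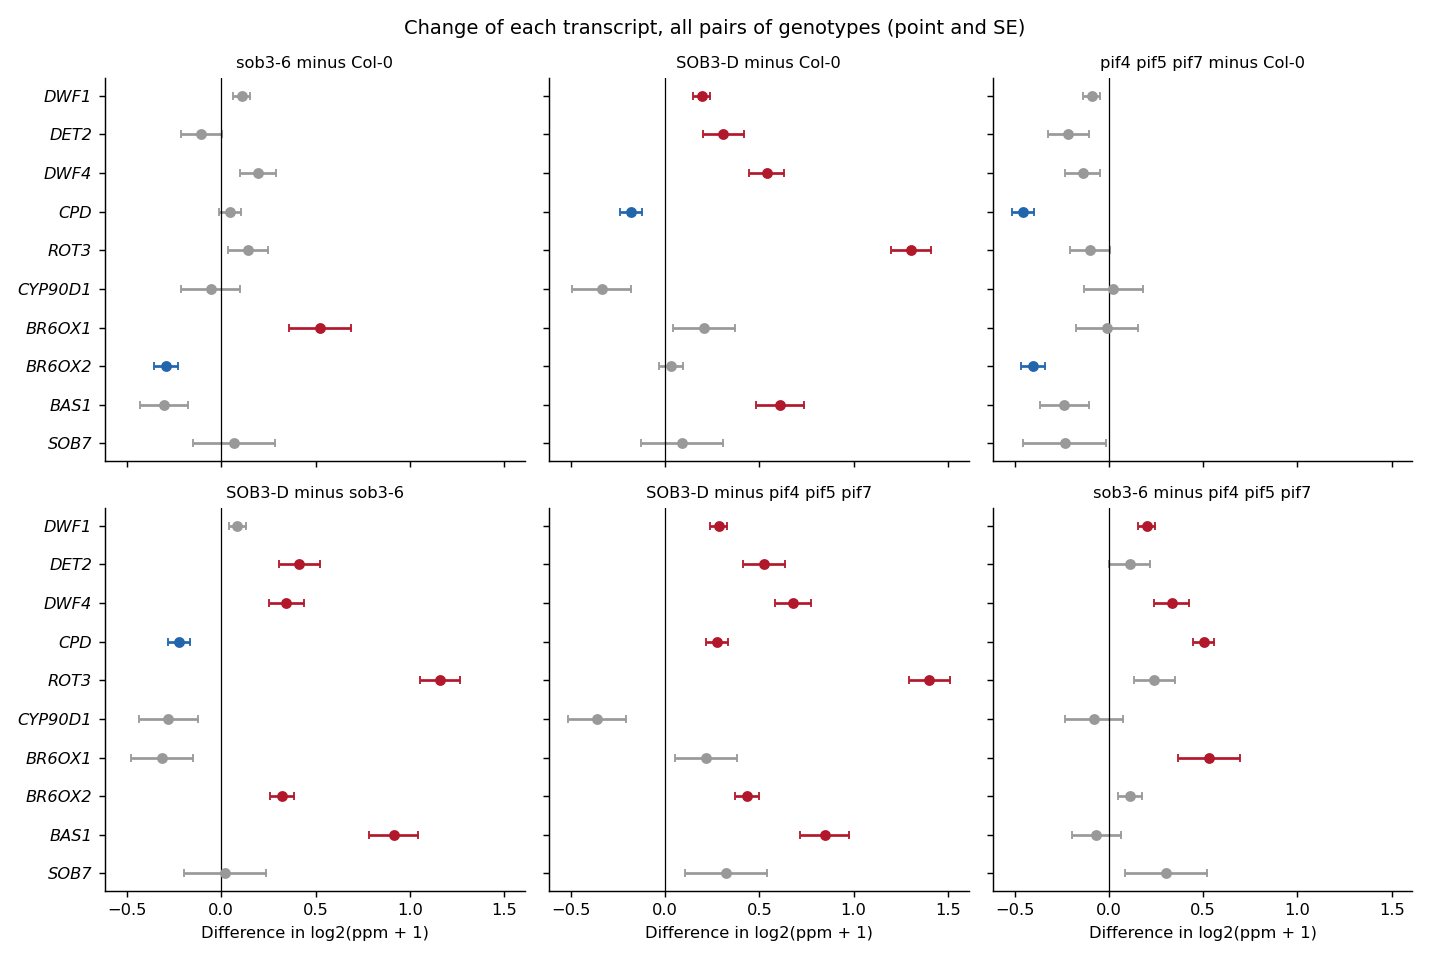
Difference in log2(ppm + 1) between genotypes for each member (point, with 1 standard error of the limma fit), with 1 panel per pair of genotypes. Red points were called higher and blue points lower at an adjusted p under 0.05, and grey points were not called. ROT3 is the farthest right in each of the 3 panels that set SOB3-D against another genotype.

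DWF1 (AT3G19820) reduces a sterol side chain to give campesterol, the entry to the pathway. Its gene lies on chromosome 3, 6879524 to 6882315 on the minus strand, with 3 exons. Its libraries read 398.8, 388.1 and 410.2 ppm in Col-0, 409.2, 429.8 and 453.5 in sob3-6, 444.5, 466.2 and 459.8 in SOB3-D, and 362.9, 375.8 and 385.2 in pif4 pif5 pif7. The SOB3-D libraries were all above those of Col-0, and the pif4 pif5 pif7 libraries all below, while sob3-6 overlapped both Col-0 and SOB3-D. DWF1 rose in SOB3-D by 0.19 on the log2 scale (SE 0.04, limma adjusted p = 0.00139), a ratio of means of 1.14. In pif4 pif5 pif7 the difference was -0.09 (SE 0.04, adjusted p = 0.256) and in sob3-6 0.11 (SE 0.04, adjusted p = 0.104). The neighbouring gene AT3G19810 on the same strand shares 20 bases with DWF1 and fell in SOB3-D (-0.44, adjusted p = 1.17e-06), the opposite direction.

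DET2 (AT2G38050), a steroid reductase, acts early in the branch to brassinosteroids. Its 2-exon gene lies on chromosome 2, 15921136 to 15922321 on the minus strand. It read 9.89, 11.4 and 10.8 ppm in Col-0, 9.22, 10.7 and 9.63 in sob3-6, 13.4, 13 and 14 in SOB3-D, and 7.51, 8.89 and 11 in pif4 pif5 pif7. Every SOB3-D library was above every other library, and the other 3 genotypes overlapped. DET2 rose in SOB3-D against Col-0 by 0.31 (SE 0.11, adjusted p = 0.0358), but the call was lost when Col-0 replicate 1 (adjusted p = 0.145) or replicate 3 (0.0744), or SOB3-D replicate 1 (0.0646) or replicate 3 (0.103), was left out, and without the filter on low values (0.0616). It was also higher in SOB3-D than in sob3-6 (0.41, SE 0.11, adjusted p = 0.00381) and than in pif4 pif5 pif7 (0.52, SE 0.11, adjusted p = 0.000379), calls that held in every alternative run. AT2G38040, on the opposite strand with 35 shared bases, stood at 297 ppm in SOB3-D and 313 ppm in Col-0 and was not called between them (-0.08, adjusted p = 0.253).

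DWF4 (AT3G50660) hydroxylates the steroid side chain and is known as a rate-limiting step of the pathway. The gene lies on chromosome 3, 18813949 to 18817405 on the minus strand, with 8 exons. It read 13.5, 13.3 and 14.1 ppm in Col-0, 14, 16.2 and 17.2 in sob3-6, 18.7, 19 and 23.4 in SOB3-D, and 11.8, 12.3 and 12.8 in pif4 pif5 pif7, from 143 to 217 reads a library. The SOB3-D libraries were all the highest and the pif4 pif5 pif7 libraries all the lowest, with 1 sob3-6 library inside the Col-0 range. DWF4 rose in SOB3-D from 13.6 ± 0.39 to 20.4 ± 2.6 ppm, a ratio of means of 1.49 (log2 change 0.54, SE 0.09, adjusted p = 4.95e-05), and this call held in all 22 alternatives. The difference from Col-0 was 0.19 (SE 0.09, adjusted p = 0.169) in sob3-6 and -0.14 (SE 0.09, adjusted p = 0.441) in pif4 pif5 pif7. Between the altered lines, DWF4 was higher in SOB3-D than in pif4 pif5 pif7 (0.68, SE 0.09, adjusted p = 1.19e-06) and than in sob3-6 (0.34, SE 0.09, adjusted p = 0.00451). The second of these calls was lost without SOB3-D replicate 3 (adjusted p = 0.051).

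CPD (AT5G05690), a P450 enzyme whose loss causes severe dwarfism, moved the other way from DWF4 in SOB3-D. The gene lies on chromosome 5, 1702640 to 1706948 on the minus strand, with 8 exons. It read 165.9, 189.3 and 183 ppm in Col-0, 178.1, 176.5 and 201.4 in sob3-6, 150, 162.3 and 162.3 in SOB3-D, and 124.9, 127 and 139.6 in pif4 pif5 pif7. The pif4 pif5 pif7 libraries were all below every other library, SOB3-D lay between them and Col-0, and Col-0 and sob3-6 overlapped. CPD fell in pif4 pif5 pif7 from 179 ± 12 to 131 ± 8 ppm, to 72.7% of Col-0 (log2 change -0.46, SE 0.06, adjusted p = 6.41e-06), and this held in all 22 alternatives. With a mean of 158 ± 7.1 ppm it also fell in SOB3-D (-0.18, SE 0.06, adjusted p = 0.0221). That call was lost without Col-0 replicate 2 (adjusted p = 0.127), Col-0 replicate 3 (0.0844) or SOB3-D replicate 1 (0.115), after quantile normalization (0.0614) and without the low-value filter (0.0582). In sob3-6 the difference was 0.05 (SE 0.06, adjusted p = 0.651). CPD shares 20 bases with AT5G05680 on the opposite strand, which was not called in any of the comparisons.

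ROT3 (AT4G36380) and CYP90D1 (AT3G13730) are related P450 enzymes known to hydroxylate the same side-chain position, with overlapping roles. The ROT3 gene lies on chromosome 4, 17187528 to 17192507 on the minus strand, with 9 exons, and the CYP90D1 gene on chromosome 3, 4497893 to 4500920 on the minus strand, with 7 exons. ROT3 read 7.46, 7.54 and 7.45 ppm in Col-0, 8.26, 7.76 and 9.15 in sob3-6, 19.9, 19.7 and 20.2 in SOB3-D, and 5.72, 7.26 and 7.97 in pif4 pif5 pif7. All 3 SOB3-D libraries stood far above the rest, and none of the other 9 libraries exceeded 9.15 ppm. ROT3 rose in SOB3-D from 7.49 ± 0.049 to 19.9 ± 0.25 ppm, a ratio of means of 2.66 (log2 change 1.30, SE 0.11, adjusted p = 9.86e-11). This was the largest change of any member against Col-0, and over the 22 alternatives its adjusted p stayed between 5.65e-12 and 4.7e-07. The difference from Col-0 was 0.14 (SE 0.11, adjusted p = 0.403) in sob3-6 and -0.10 (SE 0.11, adjusted p = 0.673) in pif4 pif5 pif7. A gene on the opposite strand, AT4G36370, shares 83 bases with ROT3 and had no level among the deposited values.

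CYP90D1 read 5.6, 4.92 and 5.04 ppm in Col-0, 4.57, 4.81 and 5.49 in sob3-6, 3.01, 3.94 and 4.91 in SOB3-D, and 5.58, 6.79 and 3.84 in pif4 pif5 pif7, from 23 to 100 reads a library. The SOB3-D libraries were all below those of Col-0, by a narrow margin in replicate 3, and the other genotypes overlapped Col-0. The difference in SOB3-D was -0.34 (SE 0.16, adjusted p = 0.113) and reached the threshold only when SOB3-D replicate 3 was left out (-0.47, adjusted p = 0.0361). Within a library, the ratio of ROT3 to CYP90D1 is unchanged by a factor common to all genes, though quantile normalization can change it. It was 1.33, 1.53 and 1.48 in Col-0, 1.81, 1.61 and 1.67 in sob3-6, 6.61, 5 and 4.12 in SOB3-D, and 1.03, 1.07 and 2.08 in pif4 pif5 pif7. Every SOB3-D ratio was above every other one, and on the log2 scale SOB3-D exceeded Col-0 by 1.83 (two-sided exact permutation p = 0.1, the smallest that 3 against 3 libraries allow).

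BR6OX1 (AT5G38970) and BR6OX2 (AT3G30180) are related P450 enzymes that oxidize the steroid ring late in the pathway, and BR6OX2 is also known to make brassinolide. The BR6OX1 gene lies on chromosome 5, 15594674 to 15598089 on the minus strand, with 8 exons, and the BR6OX2 gene on chromosome 3, 11810726 to 11813883 on the plus strand, with 9 exons. BR6OX2 read 40.1, 42.1 and 41.4 ppm in Col-0, 32, 31.8 and 36.7 in sob3-6, 42.9, 41.8 and 41.5 in SOB3-D, and 30.5, 30.9 and 31.2 in pif4 pif5 pif7. Col-0 and SOB3-D overlapped, and every sob3-6 and pif4 pif5 pif7 library was below both. BR6OX2 fell in sob3-6 from 41.2 ± 0.99 to 33.5 ± 2.8 ppm (log2 change -0.29, SE 0.06, adjusted p = 0.00194) and reached 30.9 ± 0.33 ppm in pif4 pif5 pif7 (-0.40, SE 0.06, adjusted p = 0.000106). Both calls held in all 22 alternatives. In SOB3-D the difference from Col-0 was 0.03 (SE 0.06, adjusted p = 0.787). Between sob3-6 and pif4 pif5 pif7 it was 0.11 (SE 0.06, adjusted p = 0.184), although their libraries did not overlap.

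BR6OX1 was at the low end of the members, with 15 to 46 reads a library. It read 1.56, 1.68 and 2.28 ppm in Col-0, 2.81, 2.75 and 3.66 in sob3-6, 3.01, 2.14 and 1.75 in SOB3-D, and 2.15, 1.56 and 1.74 in pif4 pif5 pif7. The sob3-6 libraries were all above those of Col-0 and pif4 pif5 pif7, and 1 SOB3-D library fell among them. BR6OX1 rose in sob3-6 from 1.84 ± 0.39 to 3.07 ± 0.51 ppm (log2 change 0.52, SE 0.16, adjusted p = 0.0321). The call was lost without Col-0 replicate 1 (adjusted p = 0.127), Col-0 replicate 2 (0.11) or sob3-6 replicate 3 (0.162), with reads thinned to the smallest library (0.177), without the low-value filter (0.0521), and under median-of-ratios (0.0598) or quantile (0.061) scaling. The coding sequences of BR6OX1 and BR6OX2 were 81.7% identical over 1155 aligned bases. Their annotated transcripts shared 3 exact 30-base sequences, which may overlap each other, so some reads could be assigned to either gene. No other pair among the 45 shared such a sequence. The ratio of BR6OX1 to BR6OX2 was 0.0388, 0.04 and 0.055 in Col-0, 0.0877, 0.0864 and 0.0998 in sob3-6, 0.0701, 0.0512 and 0.0423 in SOB3-D, and 0.0703, 0.0504 and 0.0557 in pif4 pif5 pif7. Every sob3-6 ratio was above all others, by 1.05 against Col-0 on the log2 scale (two-sided exact permutation p = 0.1).

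BAS1 (AT2G26710) is a P450 enzyme that inactivates brassinosteroids by hydroxylating them. The gene lies on chromosome 2, 11380463 to 11383821 on the plus strand, with 4 exons. It read 8.58, 7.61 and 7.73 ppm in Col-0, 6.89, 6.39 and 5.57 in sob3-6, 16.1, 11.4 and 11.1 in SOB3-D, and 6.72, 7.67 and 5.58 in pif4 pif5 pif7. Every SOB3-D library was above every other, and replicate 1 stood apart from the other SOB3-D libraries. The sob3-6 libraries were all below those of Col-0. BAS1 rose in SOB3-D from 7.97 ± 0.53 to 12.9 ± 2.8 ppm, a ratio of means of 1.61 (log2 change 0.61, SE 0.13, adjusted p = 0.000586), and the call held in all 22 alternatives with an adjusted p of at most 0.0113. In sob3-6 the difference was -0.30 (SE 0.13, adjusted p = 0.118), and in pif4 pif5 pif7 -0.24 (SE 0.13, adjusted p = 0.316). The direct comparison of SOB3-D with sob3-6 gave 0.91 (SE 0.13, adjusted p = 1.92e-06), a ratio of means of 2.05.

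SOB7 (AT1G17060), a P450 enzyme related to BAS1, is also known to inactivate brassinosteroids. The gene lies on chromosome 1, 5832094 to 5835488 on the minus strand, with 5 exons. It read 1.8, 1.56 and 2.55 ppm in Col-0, 1.92, 2.46 and 1.91 in sob3-6, 2.88, 0.901 and 3.16 in SOB3-D, and 1.36, 1.63 and 1.52 in pif4 pif5 pif7. SOB3-D held both the lowest and the highest library, the lowest from 8 reads, and all genotypes overlapped Col-0. SOB7 was not called in any comparison, with a difference from Col-0 of 0.09 (SE 0.22, adjusted p = 0.819) in SOB3-D, 0.07 (SE 0.22, adjusted p = 0.874) in sob3-6 and -0.24 (SE 0.22, adjusted p = 0.614) in pif4 pif5 pif7. Without SOB3-D replicate 2 it was higher in SOB3-D than in pif4 pif5 pif7 (0.68, adjusted p = 0.00326), against 0.32 (adjusted p = 0.278) with all libraries. SOB7 had the fewest reads of the members, 8 to 37 a library. AT1G17065, on the opposite strand, overlaps SOB7 over 1728 bases and had no level among the deposited values. The ratio of BAS1 to SOB7 overlapped between SOB3-D (3.52 to 12.6) and Col-0 (3.03 to 4.88), with an exact permutation p of 0.4.

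**Figure D3:**
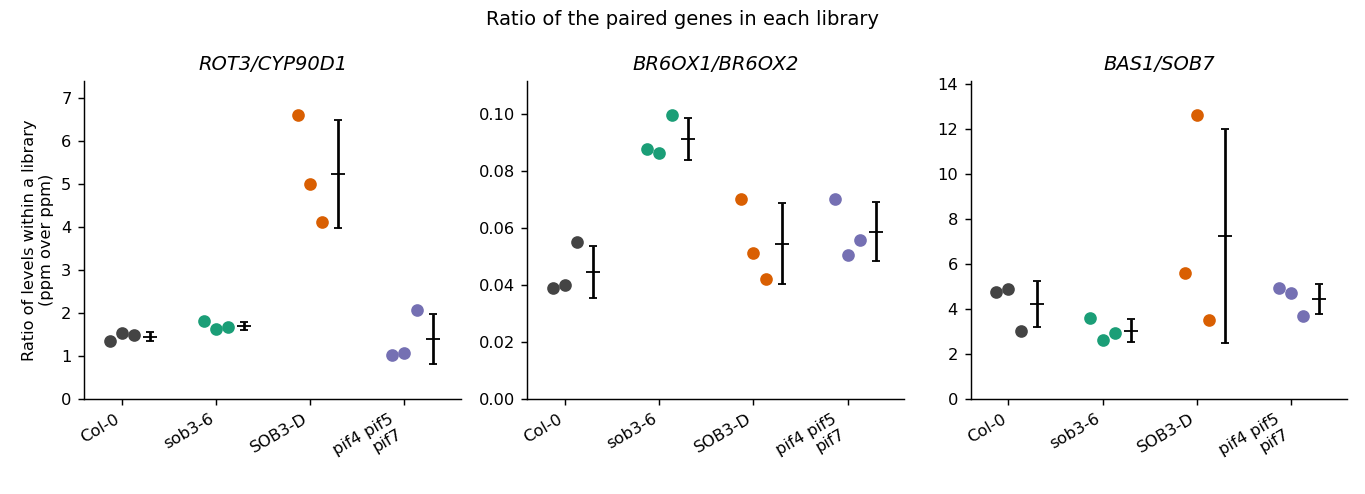
Ratio of the levels of 2 related genes within each library (ppm over ppm, linear axes from 0). Points are the 3 libraries of a genotype and bars are mean ± SD. ROT3 over CYP90D1 is highest in SOB3-D (4.12 to 6.61), BR6OX1 over BR6OX2 is highest in sob3-6 (0.0864 to 0.0998), and BAS1 over SOB7 overlaps between SOB3-D and Col-0.

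The altered lines were also compared with each other, which asks how far AHL and PIF genotypes differ in this pathway. SOB3-D against pif4 pif5 pif7 gave the most calls: 7 of 10 members were higher in SOB3-D and 0 lower, beside 33.6% of all tested genes called (18.3% higher and 15.3% lower). Those higher were ROT3 (1.40, SE 0.11, adjusted p = 1.5e-11), BAS1, DWF4, DET2, BR6OX2 (0.43, SE 0.06, adjusted p = 3.06e-06), DWF1 (0.29, SE 0.04, adjusted p = 8.97e-06) and CPD (0.28, SE 0.06, adjusted p = 0.000467). All 7 held in every alternative run. Their libraries did not overlap, as in 42.2% of all tested genes. In edgeR 0 were lower, and at an unadjusted limma p under 0.05 the 1 lower member was CYP90D1 (-0.36, SE 0.16, adjusted p = 0.0741). It was called after quantile normalization (0.038) and without SOB3-D replicate 3 (0.0225) or pif4 pif5 pif7 replicate 3 (0.00849).

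SOB3-D was then set against sob3-6, where SOB3 transcript was also high. Here 5 members were higher in SOB3-D and CPD was lower, beside 35.7% of tested genes called (10.9% higher and 24.8% lower), and 6 of 10 did not overlap, beside 44.1%. ROT3 (1.16, SE 0.11, adjusted p = 7.75e-10), BAS1, DET2, DWF4 and BR6OX2 (0.32, SE 0.06, adjusted p = 0.000182) were higher. The CPD difference was -0.23 (SE 0.06, adjusted p = 0.00334), a call lost under median-of-ratios scaling (adjusted p = 0.0671) and in edgeR on whole reads (0.0692). Under median-of-ratios scaling (adjusted p = 0.00423) and in edgeR on whole reads (0.00579) DWF1 was called higher in SOB3-D, against 0.09 (SE 0.04, adjusted p = 0.137) otherwise. Of all genes called in this comparison 30.5% were higher in SOB3-D, and 52.4% were after median-of-ratios scaling and 46.7% after quantile normalization.

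Between sob3-6 and pif4 pif5 pif7, 4 members were higher in sob3-6 and 0 lower, beside 33.7% of tested genes called (25.7% higher and 8.02% lower). None was lower at an unadjusted limma p under 0.05 (0 of 10) or in edgeR (0 of 10), and 6 of 10 did not overlap, beside 46.6%. CPD was higher by 0.50 (SE 0.06, adjusted p = 1.76e-07), and that call held in all 22 alternatives. BR6OX1 (0.53, SE 0.16, adjusted p = 0.0131), DWF4 (0.33, SE 0.09, adjusted p = 0.00628) and DWF1 (0.20, SE 0.04, adjusted p = 0.000922) were the others. The median of all tested genes was itself 0.10 higher in sob3-6, and quantile normalization moved it by -0.10. The DWF4 call was lost under median-of-ratios (adjusted p = 0.0602) and quantile (0.0989) scaling and without sob3-6 replicate 3 (0.0506), the DWF1 call under median-of-ratios (0.12) and edgeR (0.0975), and the BR6OX1 call under quantile scaling (0.0615), with thinned reads (0.0933) and without sob3-6 replicate 3 (0.0848) or pif4 pif5 pif7 replicate 2 (0.0606). Of all genes called, 76.2% were higher in sob3-6, but 46.8% after median-of-ratios scaling and 50.1% after quantile normalization.

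The rest of the pathway was read from 47 further genes, of which 46 were in the files and 42 were tested. BSU1, TCP1, CES and PRE5 were below the filter, with PRE5 at most at 0.935 ppm in any library. Against Col-0, 3 were higher and 4 lower in SOB3-D, 3 higher and 3 lower in sob3-6, and 0 higher and 8 lower in pif4 pif5 pif7, beside the shares of all tested genes given above. In pif4 pif5 pif7, 1 gene was higher at an unadjusted limma p under 0.05 and 1 was called higher by edgeR, and the 8 lower were 7 in edgeR and 5 under median-of-ratios or quantile scaling. Set against pif4 pif5 pif7, SOB3-D had 15 higher and 0 lower, beside 18.3% and 15.3% of all tested genes. At an unadjusted limma p under 0.05, 1 was lower, and 0 were in edgeR. Against the same line, sob3-6 had 17 higher and 3 lower, beside 25.7% and 8.02%. The 17 depended on the scaling: 8 were higher in edgeR, 8 under median-of-ratios and 7 under quantile scaling, with 4 lower in each. Set against sob3-6, SOB3-D had 8 higher and 8 lower, beside 10.9% and 24.8% of all tested genes. These counts were 11 and 4 in edgeR, 12 and 5 under median-of-ratios scaling and 8 and 5 under quantile scaling.

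Upstream of DWF1, 1 of 9 sterol genes rose in SOB3-D, beside 11.6% of all tested genes, and 1 fell in pif4 pif5 pif7, beside 4.83%. SMT3, a sterol methyltransferase, read 26.6, 27.9 and 28.9 ppm in Col-0 and 37.4, 40.6 and 44.4 ppm in SOB3-D. All SOB3-D libraries were higher, and the rise was 0.54 (SE 0.08, adjusted p = 2.87e-06). CYP51G1, a sterol demethylase, fell from 94.9 ± 3.1 to 83.3 ± 0.79 ppm in pif4 pif5 pif7 (-0.19, SE 0.05, adjusted p = 0.0157). That call was lost without Col-0 replicate 3 (adjusted p = 0.114) or pif4 pif5 pif7 replicate 1 (0.0668) and under median-of-ratios (0.0711) or quantile (0.07) scaling. SMT2, another sterol methyltransferase, differed there by -0.15 (SE 0.05, adjusted p = 0.052). Of the 4 other inactivation genes, limma called BAT1, an acyltransferase, against Col-0, higher in SOB3-D by 0.37 (SE 0.13, adjusted p = 0.0302), at 10.14 ± 1.8 ppm beside 7.58 ± 0.81 ppm. The call was lost without Col-0 replicate 1 (adjusted p = 0.0737), Col-0 replicate 2 (0.14) or SOB3-D replicate 1 (0.201), with thinned reads (0.14) and without the low-value filter (0.0647). UGT73C5, a glucosyltransferase, differed by 0.35 (SE 0.11, limma adjusted p = 0.0556) in pif4 pif5 pif7, where edgeR called it higher. Both were chosen for mention after their values were seen.

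Of 6 tested receptor complex genes, the receptor kinase BRI1 fell in both SOB3-D and pif4 pif5 pif7. BRI1 read 177.3, 178.8 and 186.4 ppm in Col-0, 185, 183.4 and 190.2 in sob3-6, 147.6, 151.3 and 156.1 in SOB3-D, and 144.2, 153.7 and 152.2 in pif4 pif5 pif7. The SOB3-D and pif4 pif5 pif7 libraries were all below those of Col-0 and sob3-6. The change was -0.25 (SE 0.05, adjusted p = 9e-05) in SOB3-D and -0.27 (SE 0.05, adjusted p = 0.00031) in pif4 pif5 pif7. BKI1, an inhibitor of BRI1, was higher in sob3-6 (16.1 ± 1.2 to 20.1 ± 0.68 ppm, 0.30, SE 0.09, adjusted p = 0.0226). Its call was lost without Col-0 replicate 1 (adjusted p = 0.105), Col-0 replicate 2 (0.0785), sob3-6 replicate 1 (0.0517) or sob3-6 replicate 3 (0.0943), under median-of-ratios (0.0805) or quantile (0.0994) scaling and with thinned reads (0.0635). BRL3, a BRI1-like receptor, differed by -0.34 (SE 0.14, adjusted p = 0.0661) in SOB3-D.

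Among 6 tested kinases and phosphatases, BIN2, the kinase that restrains BZR1 and BES1, rose from 136 ± 3.2 to 172 ± 8.7 ppm in SOB3-D (0.34, SE 0.05, adjusted p = 1.94e-05). In pif4 pif5 pif7 it fell to 117 ± 10 ppm (-0.21, SE 0.05, adjusted p = 0.0148), a call lost without Col-0 replicate 3 (adjusted p = 0.0849), pif4 pif5 pif7 replicate 1 (0.0944) or replicate 2 (0.107), under median-of-ratios (0.0564) or quantile (0.072) scaling and without the low-value filter (0.0529). BSL1, a phosphatase of the pathway, fell in SOB3-D (-0.18, SE 0.06, adjusted p = 0.0232), and not without Col-0 replicate 2 (0.0966), SOB3-D replicate 2 (0.0504) or SOB3-D replicate 3 (0.124), or with thinned reads (0.116). BIL1, a kinase related to BIN2, differed by -0.13 (SE 0.06, adjusted p = 0.209) in pif4 pif5 pif7. In the BZR family of 6 transcription factors, limma called 0 in sob3-6 (0 at an unadjusted p under 0.05, 0 in edgeR) and 0 in SOB3-D (1 and 1, namely BES1), and BES1 was lower in pif4 pif5 pif7 (-0.19, SE 0.05, adjusted p = 0.0291). Of 3 tested regulators of these genes, ATAF2, a NAC factor known to repress BAS1 and SOB7, was higher in sob3-6 (10 ± 1.8 to 13.8 ± 0.96 ppm, 0.44, SE 0.11, adjusted p = 0.00864). LOB, another of these 3, was at 2.68 ± 0.25 ppm in Col-0 and 1.76 ± 0.35 ppm in sob3-6. Limma did not call LOB there, and edgeR called it lower. BES1, ATAF2 and LOB were chosen after their values were seen. The BES1 call was lost in 9 and the ATAF2 call in 3 of 22 alternatives.

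Of 8 tested response genes, 1 rose and 3 fell in sob3-6, beside 9.43% and 3.95% of all tested genes. In SOB3-D 2 of 8 fell, beside 14.9%, and in pif4 pif5 pif7 4 of 8 fell, beside 4.83%. IAA19, an auxin and brassinosteroid response gene, read 6.28, 6.79 and 8.56 ppm in Col-0, 5.53, 5.5 and 6.21 in sob3-6, 3.14, 2.93 and 3.04 in SOB3-D, and 3.15, 4.28 and 2.97 in pif4 pif5 pif7. SOB3-D and pif4 pif5 pif7 were both wholly below the other genotypes, with a change from Col-0 of -1.02 (SE 0.14, adjusted p = 1.31e-06) and -0.88 (SE 0.14, adjusted p = 9.56e-05). BEE3, a bHLH gene induced by brassinosteroids, fell from 22.5 ± 1.4 to 15.6 ± 0.61 ppm in pif4 pif5 pif7 (-0.50, SE 0.09, adjusted p = 0.000295). It also fell in sob3-6, where the mean was 17.4 ± 1.4 ppm (-0.35, SE 0.09, adjusted p = 0.0059). In SOB3-D BEE3 stood at 22.2 ± 2.3 ppm. EXPA8, an expansin, fell in sob3-6 (-0.39, SE 0.05, adjusted p = 3.99e-06) and in pif4 pif5 pif7 (-0.23, SE 0.05, adjusted p = 0.00565, but 0.0597 without pif4 pif5 pif7 replicate 1), and its difference in SOB3-D was 0.01 (SE 0.05, adjusted p = 0.877). The other calls, named after their values were seen, were TCH4, a cell wall enzyme gene, in sob3-6 (-0.58, adjusted p = 0.00473) and SOB3-D (-0.61, adjusted p = 0.00111), BEE1 in pif4 pif5 pif7 (-0.72, adjusted p = 0.00755, but 0.0688 without its replicate 3) and PRE1, a bHLH gene, higher in sob3-6 (0.44, adjusted p = 0.00594).

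**Figure D4:**
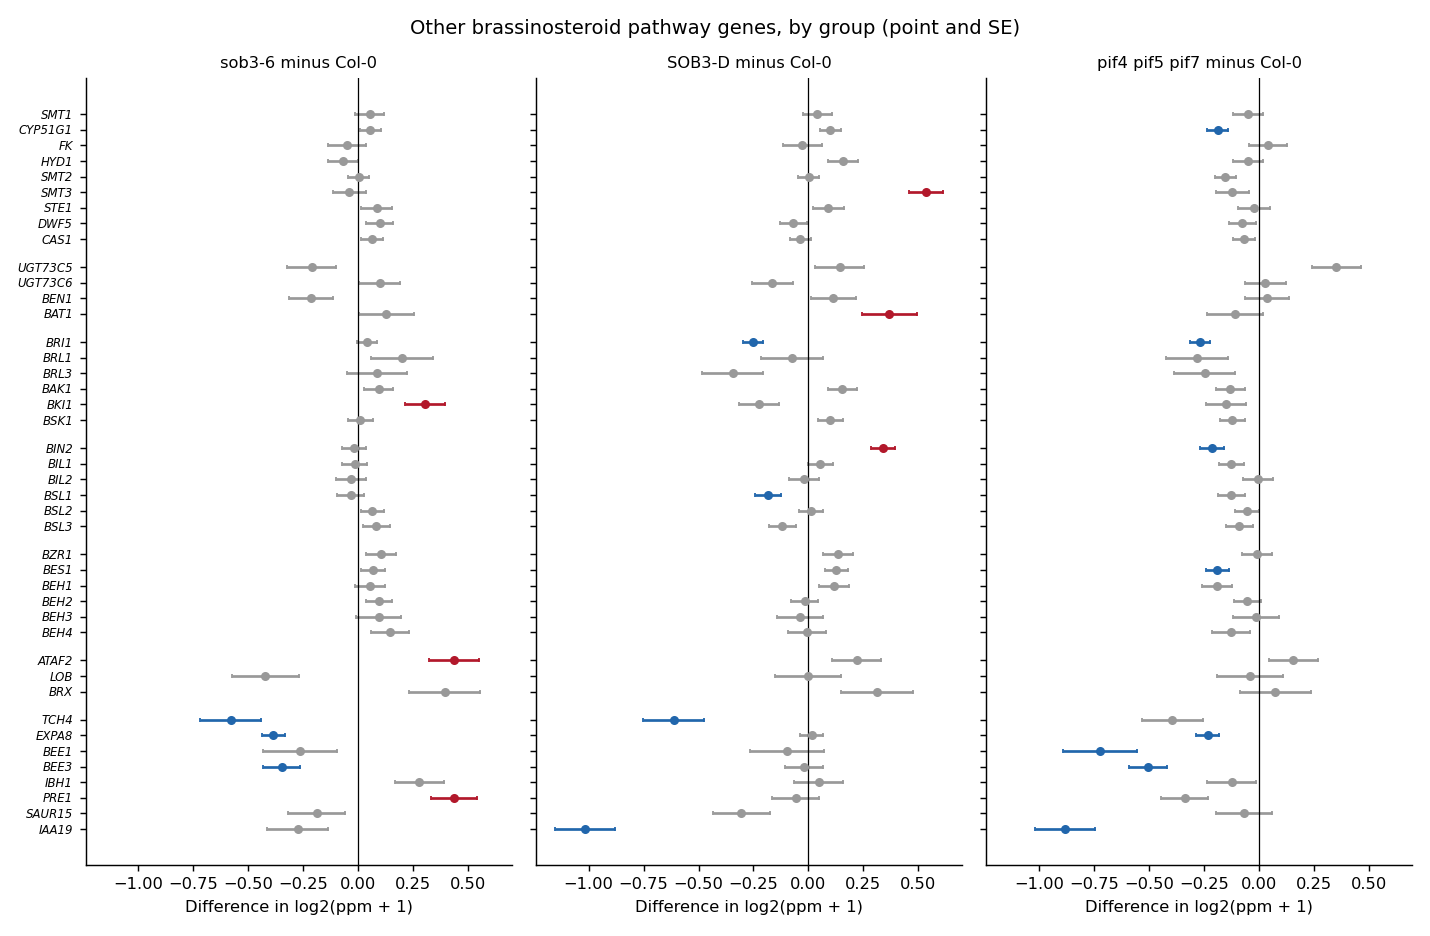
Difference in log2(ppm + 1) from Col-0 for the 42 tested genes of the rest of the pathway (point, with 1 standard error), 1 panel per altered genotype, with gaps between sterol, other inactivation, receptor, kinase and phosphatase, BZR, regulator and response genes from top to bottom. Red points were called higher, blue points lower, and grey points were not called. All 8 called genes in the pif4 pif5 pif7 panel are lower than in Col-0.

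The genes whose levels ran most like those of 4 members were found by Pearson's r of log2(ppm + 1) over the 12 libraries, among 14617 genes with a mean of at least 5 ppm. The libraries share their genotypes and Col-0 background, so r is a description only. ROT3 was most like SOT12 (r = 0.987), CYP705A22 (0.982) and MYB95 (0.98). CYP705A22 was at 2.52 ppm in Col-0, 3.08 in sob3-6, 16 in SOB3-D and 2 in pif4 pif5 pif7. It reached the mean of 5 ppm only through SOB3-D, where ROT3 was also high, so its r carries no weight of its own. MYB95, a MYB transcription factor gene, was at 8.16 ppm in Col-0, 7.55 in sob3-6, 32.6 in SOB3-D and 7.03 in pif4 pif5 pif7. DWF4 was most like AT5G19860 (r = 0.966), PIL5 (0.966), a phytochrome-interacting factor also called PIF1, and KAI2 (0.965), the karrikin receptor. PIL5 was at 55.5 ppm in Col-0 and 83.2 ppm in SOB3-D. CPD was most like UGT72E1 (r = 0.961), AT2G46550 (0.955) and XYL1 (0.954), a xyloglucan xylosidase gene that was at 416 ppm in Col-0 and 307 ppm in pif4 pif5 pif7. BAS1 was most like AT4G39270 (r = 0.941), HAT22 (0.935), a homeodomain gene, and MTO3 (0.935), a gene of S-adenosylmethionine synthesis.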

How the data were processed

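RNA was column-purified with DNase and libraries were made with a stranded kit for mRNA, per the labels. The submitters' processing notes name bcl2fastq, Bowtie 1.2.1 and TAIR10. The sources used here do not give how reads on several transcripts, related genes or the opposite strand were counted, so overlapping genes, and BR6OX1 with BR6OX2, may share reads. The deposited values are a signal per transcript, labelled as ppm of mapped tags. They sum to 1599902 to 1626178 in a library, above the 1000000 of that scale. With only the highest transcript of each gene in a library, the sum was 1.064e+06 to 1.069e+06, so most of the excess lies in further transcripts of the same genes. Divided by the value of 1 read, all deposited values (100%) came out whole within 0.01 reads, so whole reads were recovered as an alternative. Depth is given with the results, and it limits precision most for SOB7 and BR6OX1.

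The filter kept transcripts that reached 1 ppm in 3 or more libraries (25710, from 18502 genes). The test was limma 3.58.1 (R 4.3.3, trend and robust) on log2(ppm + 1), with 1 coefficient per genotype over all 12 libraries and 8 residual degrees of freedom. Benjamini-Hochberg adjustment ran over all kept transcripts within each of the 6 pairs of genotypes. Changes on this scale understate those of low genes. Each gene was read through its transcript with the highest mean. Alternatives were other pseudocounts (0.5, 0.1), filters and scalings, edgeR 4.0.16 on whole reads, reads thinned to 7637822, a replicate block, only the 2 genotypes compared, and each library left out. Within-library ratios were tested by exact permutation in SciPy 1.17.1. Positions, overlaps and windows are from the TAIR10.1 annotation, whose transcript lengths may differ from those the authors used.

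The members, gene lists and tests were chosen with earlier results of these data known. Named were the 10 members, the altered genes, the 3 lowest p of each list with at least 2 called, and the 3 most alike genes of 4 members. Replicates of a genotype differed by more than counting error, with a chi-square of 1.98 to 3.52 per degree of freedom. This measures only spread beyond counting error, so it cannot tell separate plants from repeats of 1 library. The labels do not say that the replicates are separate cultures, and p-values then describe only the spread among these libraries, which may be technical.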

Additional observations from a re-analysis of the deposited data

How the results depend on the processing

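Each member and comparison had 22 alternatives (21 for BR6OX1 and SOB7, which do not pass a filter of 5 ppm). Of these 1308 values, 1268 kept their side of the threshold, 29 lost and 11 gained a call. No value called in the main or the alternative run changed sign. Changes of sign among values called in neither run were not counted. The calls of ROT3, BAS1, DWF4 and DWF1 in SOB3-D, of BR6OX2 in sob3-6, and of CPD and BR6OX2 in pif4 pif5 pif7, all against Col-0, held throughout. The count of members higher in sob3-6 than in Col-0 (1) became 0 without the filter, with a filter of 5 ppm, under median-of-ratios and quantile scaling and with thinned reads, and 0 to 1 with 1 library left out. Those lower there (1) became 2 under quantile scaling, with BAS1 added. Against Col-0, members lower in SOB3-D (1) became 0 without the filter and under quantile scaling, and 0 to 2 with 1 library left out. Members lower in SOB3-D than in sob3-6 (1) became 0 under median-of-ratios scaling and in edgeR, and 1 to 2 with 1 library left out. Members lower in SOB3-D than in pif4 pif5 pif7 (0) became 1 under quantile scaling, and 0 to 1 with 1 library left out. Members higher in sob3-6 than in pif4 pif5 pif7 (4) became 2 under median-of-ratios and under quantile scaling, and 2 to 5 with 1 library left out. Of all genes, 2475 were called in sob3-6 and 1493 to 2774 with 1 library left out (1493 without sob3-6 replicate 3, 1581 without Col-0 replicate 2). In pif4 pif5 pif7 1171 were called, and 642 to 1449 with 1 library left out (642 without Col-0 replicate 3, 652 without its own replicate 1). The cause was not tested. Depth was lowest in SOB3-D, and counting error weighs most on SOB7, BR6OX1 and CYP90D1, whose libraries hold the fewest reads.

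Whether replicate numbers pair the libraries could not be settled from these values. Deviations of same-numbered libraries correlated weakly, at -0.045 to 0.13, and no comparison had every pair above 0.1. Between sob3-6 and pif4 pif5 pif7, however, each library was most like its own number. With the number as a replicate block, 2 members were higher in sob3-6 than in Col-0 (BR6OX1, and DWF1 at an adjusted p of 0.0374), and no other member call changed. The block raised genes called against Col-0 to 2923 in sob3-6, 5333 in SOB3-D and 1721 in pif4 pif5 pif7.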
